A study of Mus musculus with 4 samples.

Results

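A set of 8 genes was followed by name through every deposited matrix of the series: *Tmem119*, *P2ry12*, *Gpr34*, *Trem2* and *Cx3cr1*, which are associated with microglia, the receptor gene *Csf1r*, and the genes of its ligands, *Csf1* and *Il34*. They are 8 of 33456 gene rows and held 16193 of 37437128 unique molecular identifiers (UMIs, 1 per captured RNA molecule). They were selected on their UMI levels by cell type in these same matrices, read per library and condition. Those levels are therefore given as a description with no test. The p-values of injury against control below use the same values and are not independent of this selection. The libraries came from dissociated dorsal root ganglia (DRG) of C57BL/6 mice aged 8 to 12 weeks, with no genetic change named for any of them. The methods name isoflurane anesthesia and buprenorphine analgesia for surgery, and do not state whether mice of the control libraries received them. The conditions had 2 libraries each, uninjured ganglia (control 1 and control 2) and ganglia taken 3 days after crush of the sciatic nerve (injury 1 and injury 2). The labels name L4 ganglia, the methods L4 and L5. Not every neuron of these ganglia projects through the crushed nerve, and each cell suspension was sorted for live cells before loading on the 10x Chromium system. The design text calls the libraries biological replicates, and the methods state that each batch pooled cells of several mice, so the p-values below measure the spread between pooled libraries, not between animals.

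CSF1R is a receptor tyrosine kinase of macrophages, monocytes and microglia, and CSF1 and IL-34 bind it to sustain the survival and division of these cells. TMEM119, the ADP receptor P2RY12 and the lysophosphatidylserine receptor GPR34 are used as marks of microglia in the brain, TREM2 is a lipid-sensing receptor of phagocytes, and CX3CR1 is the receptor of fractalkine. Resident macrophages lie close to neurons and satellite glial cells (SGC) in sensory ganglia, and injured sensory neurons are a known source of CSF1 for spinal microglia.

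Positions are given for 7 of the 8 genes, and that of *Csf1r* is not reported here. In the mm10 annotation (GENCODE vM21) the 7 are the protein-coding genes *Tmem119* (chr5:113793729-113800516, minus strand), *P2ry12* (chr3:59216272-59262871, minus), *Gpr34* (chrX:13632089-13640858, plus), *Trem2* (chr17:48346401-48354147, plus), *Cx3cr1* (chr9:119901616-120069879, minus), *Csf1* (chr3:107741048-107760469, minus) and *Il34* (chr8:110741829-110805924, minus). RefSeq promoters (GRCm38.p6, the 250 bases before the start, read along the gene strand) were matched for 4 of the 8 genes, and all 4 are shown. Over all libraries together, macrophage-like cells held 90.5% of the UMIs of *Trem2*, 88.7% of *Cx3cr1*, 50.5% of *P2ry12* and 2.29% of *Csf1*. The starts are those of RefSeq, which for *P2ry12* and *Cx3cr1* differ from the ends of the GENCODE spans given above. The *Cx3cr1* window lies inside its GENCODE span. Capitals mark matches to any of 7 motifs that were searched on both strands, a set settled after the windows had been searched.

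P2ry12, chr3:59262986-59263235, minus strand: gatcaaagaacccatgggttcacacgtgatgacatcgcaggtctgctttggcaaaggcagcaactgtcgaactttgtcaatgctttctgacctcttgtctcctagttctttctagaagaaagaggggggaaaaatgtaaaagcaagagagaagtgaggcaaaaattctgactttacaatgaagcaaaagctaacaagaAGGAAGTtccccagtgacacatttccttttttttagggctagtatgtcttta
Trem2, chr17:48346151-48346400, plus strand: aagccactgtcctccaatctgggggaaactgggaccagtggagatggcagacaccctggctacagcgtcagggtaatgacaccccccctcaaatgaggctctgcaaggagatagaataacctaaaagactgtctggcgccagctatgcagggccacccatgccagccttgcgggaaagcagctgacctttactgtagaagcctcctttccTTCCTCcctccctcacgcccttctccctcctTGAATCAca
Cx3cr1, chr9:120068297-120068546, minus strand: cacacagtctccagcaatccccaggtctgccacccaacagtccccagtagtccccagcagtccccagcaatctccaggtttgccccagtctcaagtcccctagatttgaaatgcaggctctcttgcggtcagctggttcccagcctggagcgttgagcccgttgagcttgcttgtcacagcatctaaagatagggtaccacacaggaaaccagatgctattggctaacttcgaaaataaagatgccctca
Csf1, chr3:107760470-107760719, minus strand: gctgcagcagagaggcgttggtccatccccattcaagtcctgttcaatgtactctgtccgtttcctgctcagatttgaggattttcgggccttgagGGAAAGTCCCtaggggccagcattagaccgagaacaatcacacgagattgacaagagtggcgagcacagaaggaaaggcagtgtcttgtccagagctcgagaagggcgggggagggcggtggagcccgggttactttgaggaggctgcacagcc

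The *P2ry12* window held AGGAAGT, an extended core of the PU.1 motif, 52 bases before the start, letters found in 7.69% of 32851 promoter windows. The *Trem2* window held the shorter PU.1 core GAGGAA on the opposite strand (23.3% of windows), 40 bases before the start, and the AP-1 motif TGANTCA (6.75%), 9 bases before it. The *Csf1* window held a match to the NF-kB consensus on the opposite strand, 154 bases before the start, a match present in 0.14% of windows. The *Cx3cr1* window held none of the 7, and the other 3 motifs matched in none of the 4 windows, namely TTCCNGGAA of STAT factors (0.913% of windows), GATAAG of GATA factors (6.55%) and the TATA box (12.4%). The longer and the shorter PU.1 core share letters, and a match is a stretch of letters, not evidence of binding.

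The 4 libraries held 1294 to 2509 barcodes and 5585909 to 11210875 UMIs, with a median of 2756 to 4934.5 UMIs per barcode. Cells were assigned by a gate on marker genes that contained none of the 8 genes, which gave 4711 cells in 16 types. The macrophage-like type held 970 cells (242, 63, 471 and 194 in control 1, control 2, injury 1 and injury 2). Their 9 marker genes, led by the C1q genes, summed to 23260 to 25410 UMIs per 1000000 UMIs (CPM) in each library, and 966 of them also fell in clusters named macrophage-like. The neuron-like type held 277 cells (21, 155, 31 and 70), its 10 markers summing to 13100 to 17120 CPM. Pairs of libraries shared 1 to 6 cell barcodes. All levels below are CPM, taken over the summed UMIs of the cells of a type in a library, and the intervals are exact 95% Poisson intervals that cover counting error only.

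The 6 genes other than the ligand genes were macrophage genes in these ganglia to unequal degrees. Macrophage-like cells held 88.7% of all *Csf1r* UMIs, 88.7% of *Cx3cr1*, 91.5% of *Gpr34* and 90.5% of *Trem2*, but 52.3% of *Tmem119* and 50.5% of *P2ry12*. These shares pool all libraries, which held unlike numbers of cells of each type. In control 1, control 2, injury 1 and injury 2 the share of *Tmem119* was 28.9, 7.24, 76.1 and 49.2%. That of *P2ry12* was 63.7, 7.5, 58.8 and 57.0%. A *Csf1r* UMI was present in 92.7% of macrophage-like cells (57.5% when each cell was thinned to 1000 UMIs) and in 0.833% of fibroblast-like cells (0.231% thinned), at median depths of 4057.5 and 4124 UMIs. Of the 970 macrophage-like cells, 108 (11.1%) held a UMI of all 6 genes, 279 held 4 of them and 9 held none. *Tmem119* and *P2ry12* were found together in 171 of the 378 cells with *Tmem119*.

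**Figure D1:**
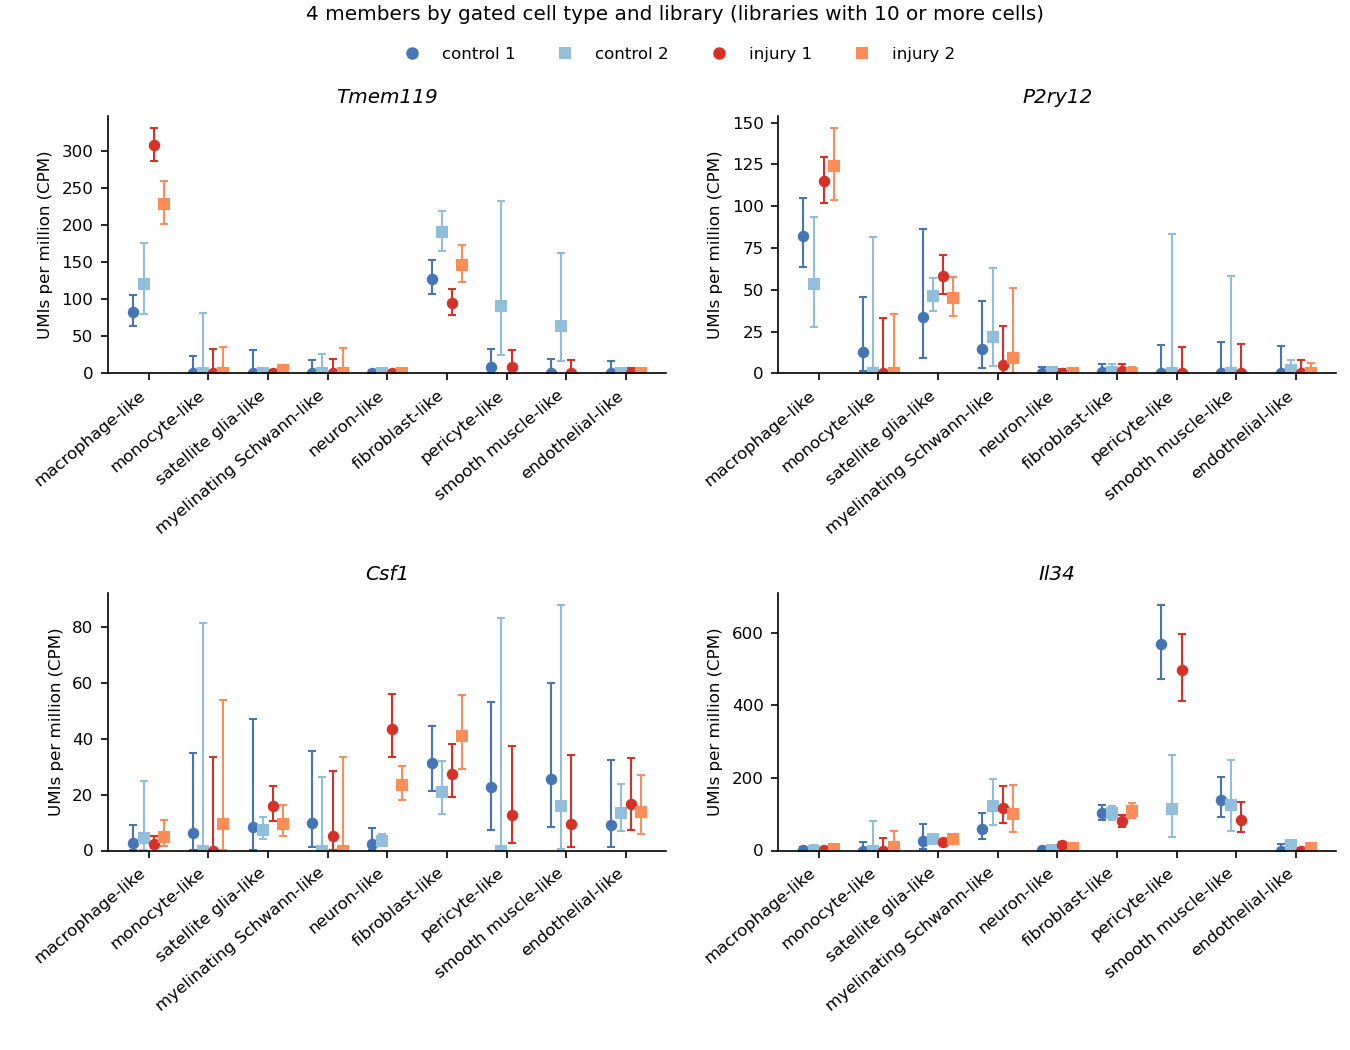
Levels of *Tmem119*, *P2ry12*, *Csf1* and *Il34* in CPM (vertical axes, linear) by gated cell type (horizontal axes), 1 point per library with 10 or more cells, with exact 95% Poisson intervals. *Tmem119* stood out in macrophage-like and fibroblast-like cells (82.4 CPM or more in each library), *P2ry12* was next highest in satellite glia-like cells among these types, and of the points shown *Csf1* was highest in neuron-like cells of injury 1 and *Il34* in pericyte-like cells of control 1. Types with few cells, non-myelinating glia-like cells among them, are not shown.

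*Tmem119*, a membrane protein gene used to tell microglia from other macrophages, had the largest fold difference between conditions of the 6 non-ligand genes in macrophage-like cells. In CPM the differences of *Csf1r* (−246) and *Trem2* (208) were larger than that of *Tmem119* (167). *Tmem119* had 65, 27, 756 and 242 UMIs in control 1, control 2, injury 1 and injury 2, or 82.4, 120, 308 and 229 CPM. Both injury libraries lay above both control libraries, and the groups did not overlap. The mean was 101 ± 26.8 CPM in control and 268 ± 56.1 CPM in injury libraries (SD, n = 2 each), a ratio of 2.645, and the share of cells with a UMI was 19.8, 28.6, 48.6 and 42.8% (7.87, 10.4, 20.3 and 16.4% expected at 1000 UMIs per cell). The log2 fold change was 1.31 (SE 0.32), and the edgeR quasi-likelihood test gave an adjusted p of 0.348 (Benjamini-Hochberg over all 6799 genes tested), so the difference did not pass the threshold of 0.05. With the replicate number as a block the edgeR adjusted p was 0.0097, with no filter on low counts 0.00943 and with DESeq2 0.41. With no filter the SE was 0.36, so the lower adjusted p of that fit does not measure a smaller spread between libraries. Without control 1, control 2, injury 1 and injury 2 in turn the log2 fold change was 1.09, 1.53, 0.97 and 1.60 and the edgeR adjusted p was 0.769, 0.0401, 0.32 and 0.00784, the lone library of a condition being assumed to vary like the others.

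*P2ry12*, which encodes the ADP receptor that guides microglial processes, had the next largest fold difference. Its levels were 82.4, 53.5, 115 and 124 CPM, from 65, 12, 283 and 131 UMIs. The injury libraries again lay above the control libraries without overlap, but control 2 rested on 12 UMIs. The injury mean was 1.758 times the control mean, and the log2 fold change of 0.57 (SE 0.29) had an adjusted p of 0.621 in edgeR. The share of cells with a UMI was 19.8, 15.9, 40.1 and 43.8%, and 7.91, 4.59, 10.7 and 11.1% at equal depth.

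*Gpr34*, a receptor for lysophosphatidylserine, had 299, 308, 221 and 304 CPM. Its groups overlapped, since injury 2 lay between the control libraries and injury 1 below all others, and the log2 fold change was −0.38 (SE 0.25, edgeR adjusted p = 0.72).

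*Trem2*, the phagocyte receptor that signals through Tyrobp, had 410, 361, 714 and 473 CPM. The groups did not overlap, with injury 1 far above the other 3 libraries, and the injury mean was 1.539 times the control mean (log2 fold change 0.48, edgeR adjusted p = 0.729). Without injury 1 the log2 fold change was 0.04.

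*Cx3cr1*, the fractalkine receptor gene, had 422, 437, 494 and 469 CPM. The injury libraries were above the control libraries, but the Poisson intervals of all 4 libraries overlapped, and the log2 fold change was 0.01 (SE 0.27), changing sign to −0.13 without injury 1 and to −0.028 without cycling cells.

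*Csf1r*, the receptor gene of the axis, was the only 1 of the 6 whose libraries lay lower after injury without overlap. It had 957, 198, 1991 and 840 UMIs, or 1214, 883, 811 and 794 CPM. Control 1 stood apart at the top, while control 2 was near the injury libraries, and the log2 fold change was −0.55 (SE 0.32, edgeR adjusted p = 0.67), or −0.22 without control 1. In all, 4 of the 6 non-ligand genes were higher and 1 was lower after injury without overlap. In this type 29.4% of the 6799 genes tested were higher and 12.8% lower without overlap, 42.2% in all. None of the 6 was called, against 0% called of the 6799 genes. Of those genes 612 had an unadjusted p under 0.05 in edgeR, and DESeq2 called 14.

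**Figure D2:**
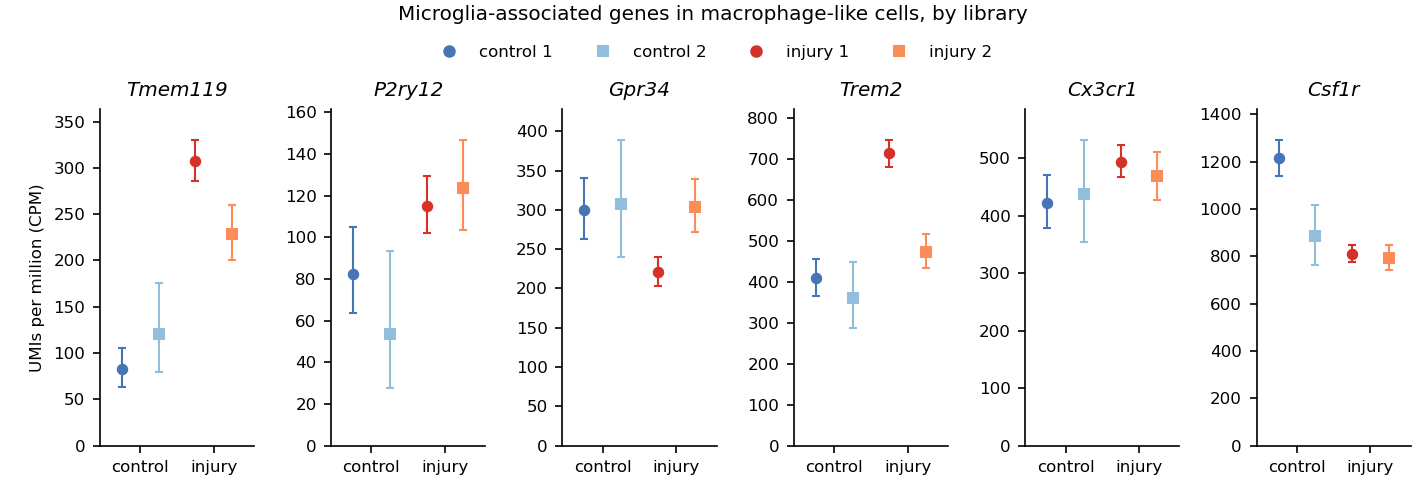
Levels of the 6 non-ligand genes in macrophage-like cells in CPM (vertical axes, linear, each from 0), 1 point per library with its exact 95% Poisson interval. *Tmem119* and *P2ry12* were higher in both injury libraries than in both control libraries, *Trem2* was highest in injury 1 at 714 CPM, and *Csf1r* was highest in control 1 at 1214 CPM.

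The injury libraries also differed from the control libraries in the makeup of their macrophage-like cells. Cells with 2 or more UMIs of 6 cell cycle genes numbered 0, 4, 75 and 46, and those genes summed to 15.2, 120, 390 and 547 CPM. All 8 SGC markers had UMIs in macrophage-like cells and summed to 41.9, 156, 87.2 and 260 CPM, and all 6 fibroblast markers to 318, 232, 135 and 628 CPM, so injury 2 carried the most RNA of both other types. The part of this RNA in the member values was not tested. In the 951 macrophage-like cells with fewer than 5 SGC marker UMIs, *Tmem119* averaged 100 CPM in control and 269 CPM in injury libraries, and *P2ry12* 68.4 and 119 CPM.

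Macrophage-like cells that were not cycling were split by *Cd163* and *Mrc1*, scavenger and mannose receptor genes of border and perivascular macrophages. *Tmem119* had 67.1, 110, 230 and 209 CPM in the 585 cells with a *Cd163* or *Mrc1* UMI, and 115, 125, 411 and 402 CPM in the 260 cells with neither. The injury libraries were above the control libraries in both groups of cells. *Csf1r* had 1425, 1042, 857 and 816 CPM in the cells with *Cd163* or *Mrc1*, where the conditions did not overlap, and 763, 747, 772 and 854 CPM in the others, where both injury libraries were the higher ones. In the same order of groups of cells, *Trem2* averaged 382 and 421 CPM in control and 605 and 654 CPM in injury libraries. The cycling cells of the injury libraries (75 and 46) had 364 and 202 CPM of *Tmem119* and 754 and 723 CPM of *Csf1r*.

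**Figure D3:**
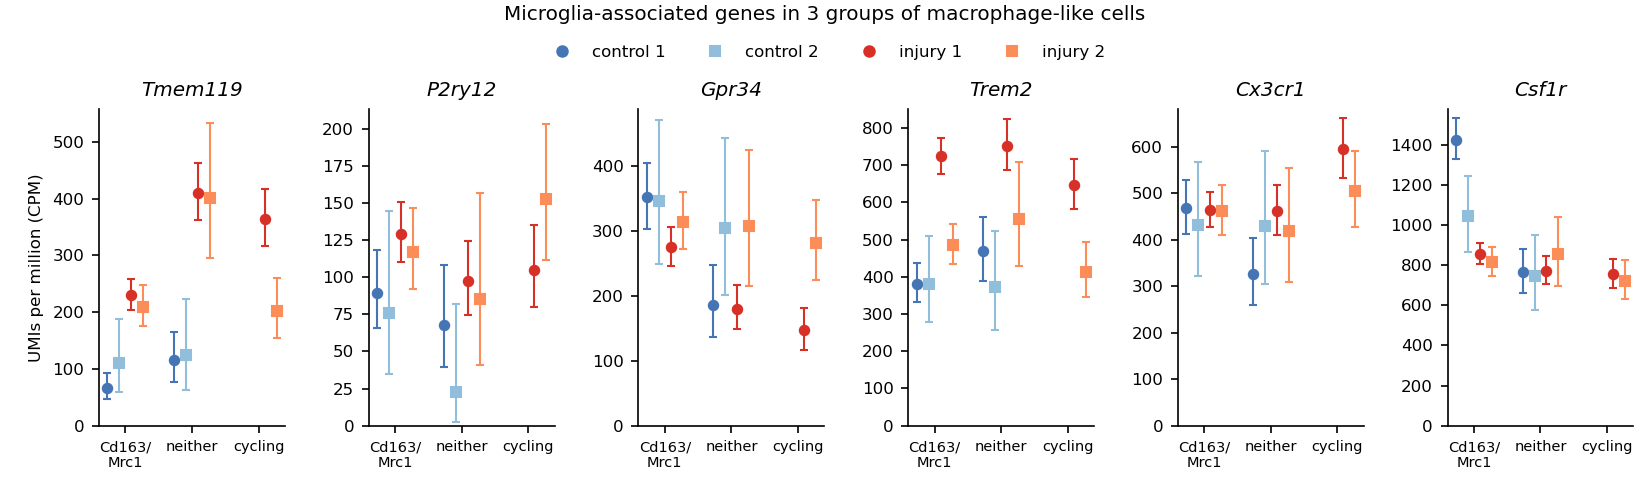
Levels of the 6 non-ligand genes in CPM (vertical axes, linear) in macrophage-like cells with a *Cd163* or *Mrc1* UMI, with neither, and in cycling cells. Each point is 1 library with its exact 95% Poisson interval, and only libraries with 10 or more such cells are shown. *Tmem119* was higher in both injury libraries in the first and second group of cells, while the control excess of *Csf1r* lay in the first.

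*Tmem119* and *P2ry12* were also found outside macrophages. Fibroblast-like cells, whose defining genes are collagens and *Dcn*, held 27.8% of all *Tmem119* UMIs (56.0, 50.9, 12.2 and 29.1% by library). They had 126, 190, 121 and 143 UMIs or 128, 190, 95.3 and 146 CPM. Both injury libraries had more in macrophage-like cells (308 and 229 CPM) than in fibroblast-like cells, and both control libraries had less (82.4 and 120 CPM). These fibroblast-like cells held 580 *Tmem119* UMIs and 9 *Csf1r* UMIs, against 1090 and 3986 in macrophage-like cells. The 174 fibroblast-like cells with a UMI of *Pi16* or *Dpp4*, genes of adventitial fibroblasts, had 267, 328, 295 and 265 CPM, and every library of them was above every library of the other fibroblast-like cells (102, 143, 58.0 and 114 CPM). No *Tmem119* UMI was found in neuron-like cells, where the upper Poisson limit for a count of 0 was 1.07 to 4.08 CPM in single libraries.

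The fibroblast-like log2 fold change of *Tmem119* was −0.33. The difference between the macrophage-like and the fibroblast-like change was 1.64 (SE 0.38), with an adjusted p of 0.523 in edgeR over 9161 genes (0.0218% of them called). Without control 1, control 2, injury 1 and injury 2 in turn the difference was 1.68, 1.56, 1.02 and 2.19 and the adjusted p was 0.984, 0.562, 0.549 and 0.000115.

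SGC-like cells held 26.2% of *P2ry12* UMIs (3.92, 55.6, 21.0 and 26.5% by library). Their levels were 33.8, 46.2, 58.0 and 45.1 CPM from 4, 89, 101 and 61 UMIs, and conditions overlapped (log2 fold change 0.26). A *P2ry12* UMI was present in 20.4% of SGC-like cells and in 0.416% of fibroblast-like cells, at median depths of 4365 and 4124 UMIs, and the shares were 4.82 and 0.0662% after thinning. SGC-like cells had 255 *P2ry12* UMIs and 22 *Csf1r* UMIs, while macrophage-like cells had 491 and 3986. The mean in SGC-like cells, 45.8 ± 9.92 CPM, was below the macrophage-like mean of 93.7 ± 32.2 CPM. Within every library the macrophage-like level was the higher one, by least in control 2 (53.5 against 46.2 CPM). Across libraries the ranges overlapped, since control 2 macrophage-like cells were at 53.5 CPM, from 12 UMIs, and injury 1 SGC-like cells at 58.0 CPM. The change in macrophage-like cells exceeded that in SGC-like cells by 0.40 (SE 0.48, edgeR adjusted p = 1.0). Myelinating Schwann-like cells were lower, at 12.7 ± 7.16 CPM from 8 UMIs. Non-myelinating glia-like cells had 71.5 CPM in control 1 and 45.7 CPM in injury 1. These values overlapped the SGC-like range but rested on 6 UMIs.

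Monocyte-like cells were next to macrophage-like cells in *Csf1r*, *Trem2* and *Cx3cr1*, at far lower levels. *Csf1r* had 239, 111, 190 and 48.3 CPM in their 37, 11, 26 and 19 cells, *Trem2* 37.8 to 127 CPM and *Cx3cr1* 0 to 118 CPM. Neither *Tmem119* nor *Gpr34* had a UMI in them, where the upper Poisson limit for a count of 0 was 23.2 to 81.8 CPM in single libraries.

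The ligand gene *Csf1* was spread over many cell types at low counts. Of its 611 UMIs, neuron-like cells held 22.8%, fibroblast-like cells 20.8%, SGC-like cells 9.17% and endothelial-like cells 4.91%, and 35.0% lay outside the gated cells. By library the neuron-like share was 2.86, 10.7, 24.5 and 36.05%, and the fibroblast-like share 44.3, 18.75, 13.6 and 23.3%. Macrophage-like cells held 2, 1, 6 and 5 UMIs, at most 4.72 CPM. Over the libraries the mean was 30.2 ± 8.31 CPM in fibroblast-like, 18.3 ± 19.6 in neuron-like, 13.3 ± 3.23 in endothelial-like and 10.4 ± 3.95 in SGC-like cells. These SDs take both conditions together. In the same order the control means were 26.2, 2.85, 11.3 and 7.85 CPM, and the injury means 34.2, 33.7, 15.3 and 12.85 CPM. Smooth muscle-like and pericyte-like cells averaged 17.0 and 11.9 CPM over 3 libraries, from 8 UMIs each. Non-myelinating glia-like cells had the highest mean of all types, which rested on 6 UMIs.

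In neuron-like cells *Csf1* had the largest log2 fold change of the main fit among the 8 genes and the types tested. It had 2, 12, 63 and 62 UMIs in 21, 155, 31 and 70 cells, or 2.21, 3.48, 43.8 and 23.6 CPM. Both injury libraries were far above both control libraries, and their Poisson intervals (33.6 to 56.0 and 18.1 to 30.2 CPM) lay clear of the control intervals (0.268 to 8.00 and 1.80 to 6.09 CPM). A UMI was found in 9.52, 6.45, 51.6 and 28.6% of cells, or 0.156, 0.440, 3.73 and 2.1% at 1000 UMIs per cell, and single neurons of the injury libraries held up to 12 and 11 UMIs. Macrophage-like cells, by comparison, had a *Csf1* UMI in 1.34% of cells at a median of 4057.5 UMIs against 22404 in neuron-like cells, and in 0.303% after thinning.

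*Csf1* and *Il34* passed the filter on low counts in neuron-like cells through the injury libraries alone, since both control libraries lay under its limit of 4.92 CPM. With this filter, genes at such control levels are tested only when they are higher after injury, and the fitted values of both genes are given as a description. For *Csf1* the log2 fold change was 3.56 (SE 0.52), with an adjusted p of 0.144 in edgeR over 10115 genes. None of the 10115 genes passed in neuron-like cells (0% called), 961 had an unadjusted p under 0.05 and DESeq2 called 127, *Csf1* among them (adjusted p = 0.000472). The edgeR adjusted p of *Csf1* was 0.0484 with the replicate block, 8.83e-11 with no filter on low counts, 0.0229, 0.0300 and 0.000810 without control 2, injury 1 and injury 2, and 0.158 without control 1.

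The same gene moved less in the other source types. *Csf1* had 31.4, 21.0, 27.6 and 40.9 CPM in fibroblast-like cells (log2 fold change 0.44), where conditions overlapped. It had 8.44, 7.26, 16.1 and 9.61 CPM in SGC-like cells (0.83) and 9.0, 13.6, 16.8 and 13.8 CPM in endothelial-like cells. In both of these types the injury libraries lay above the control libraries without overlap. Control 1 rested there on 1 UMI in SGC-like and 2 UMIs in endothelial-like cells. The neuron-like change exceeded the fibroblast-like change by 2.90 (SE 0.62, edgeR adjusted p = 0.0386, with 0.647% of 10349 genes called), the endothelial-like change by 3.09 (SE 0.79, adjusted p = 0.0134, 1.18% of 9734 called) and the SGC-like change by 2.68 (SE 0.78, adjusted p = 0.0759, 0.659% of 10922 called). These tests of a difference were added after the levels were known. They rest on the same neuron-like values as the fit above and are given as a description. The first call was lost without control 1, control 2 or injury 1 (adjusted p = 0.274, 0.0990 and 0.724) and kept without injury 2 (0.00887). The second was lost without the same 3 libraries (0.200, 0.939 and 0.425) and kept without injury 2 (0.0229).

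Within the neuron-like cells of the injury libraries, *Csf1* lay mostly in neurons with *Sprr1a*, a gene known for its induction by axotomy. Neurons with 2 or more *Sprr1a* UMIs numbered 0, 0, 19 and 16, or 35 of 101 neuron-like cells in the injury libraries. They held 109 of the 125 *Csf1* UMIs (87.2%), at 60.4 and 67.8 CPM, whereas the neurons with fewer *Sprr1a* UMIs had 2.21, 3.48, 15.1 and 4.37 CPM. The injury libraries were alike in the *Sprr1a* neurons, and in the other neurons injury 2 lay within the Poisson intervals of the control libraries and injury 1 above them. The *Sprr1a* neurons were also deeper, with a median of 40822 UMIs against 21058.5.

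The neuron-like cells of the libraries also differed in the levels of injury genes and of neuron class genes. *Sprr1a* summed to 0, 0.29, 3996 and 1022 CPM, *Atf3*, another axotomy gene, to 70.8, 77.5, 978 and 337, *Pvalb*, a proprioceptor gene, to 0, 1.45, 220 and 131, and *Scn10a*, a nociceptor sodium channel gene, to 152, 74.6, 17.4 and 50.2 CPM. *Csf1* had 0, 2.22, 48.9 and 35.8 CPM among the 9, 83, 25 and 47 neurons with no *Scn10a* UMI. Among the 12, 72, 6 and 23 neurons with such a UMI it had 2.74, 4.30, 25.5 and 7.85 CPM, from 28 UMIs in all. The 9 cells of control 1 and the 6 of injury 1 are fewer than the 10 required for means. A difference within a neuron class was not tested. All 8 SGC markers were present in neuron-like cells and summed to 557, 666, 276 and 553 CPM, and all 9 macrophage markers to 67.5, 42.7, 64.6 and 63.2 CPM, and neither list was higher in both injury libraries than in both control libraries. Only 0, 1, 2 and 2 neuron-like cells held 2 or more *Pvalb* UMIs. In the 272 others *Csf1* averaged 2.86 CPM in control and 35.0 CPM in injury libraries. Which neuron classes were caught in each library and the effect of injury cannot be told apart here. In the 65 neuron-like cells within the upper limits of the methods, *Csf1* had 0, 3, 1 and 4 UMIs, too few to compare.

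**Figure D4:**
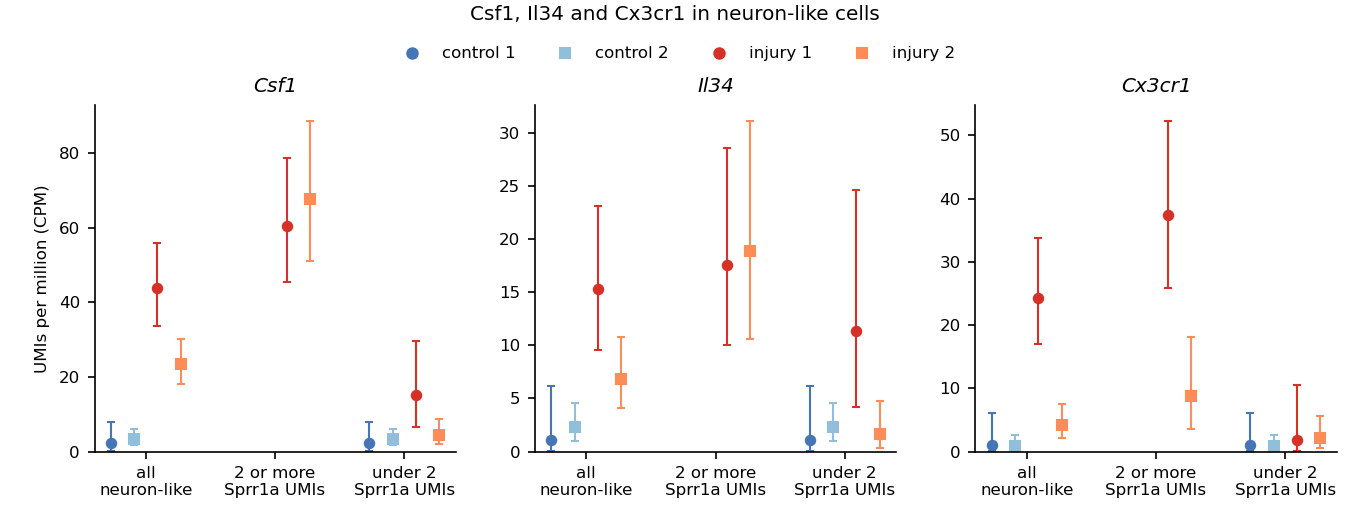
Levels of *Csf1*, *Il34* and *Cx3cr1* in CPM (vertical axes, linear) in all neuron-like cells, in those with 2 or more *Sprr1a* UMIs and in those with fewer, 1 point per library with its exact 95% Poisson interval. Control libraries had no neuron-like cell with 2 or more *Sprr1a* UMIs, and *Csf1* stood at 60.4 and 67.8 CPM in these cells of injury 1 and injury 2.

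*Il34*, which encodes the second ligand of CSF1R, was a mural, Schwann and fibroblast gene here. Pericyte-like cells had the highest levels, 568, 113, 498 and 364 CPM from 124, 5, 116 and 15 UMIs, though the 11 and 8 cells of control 2 and injury 2 leave those values with wide counting error and the 113 CPM of control 2 overlapped the next type. Smooth muscle-like cells had 139, 127, 85.3 and 104 CPM, myelinating Schwann-like cells 59.3, 122, 118 and 100 and fibroblast-like cells 103, 102, 80.4 and 109 CPM. These 3 types did not differ from each other beyond the spread between libraries, and SGC-like cells lay below all of them at 25.3, 32.2, 22.4 and 32.5 CPM. Of the 1402 *Il34* UMIs, fibroblast-like cells held 29.5% and pericyte-like cells 18.5%, and macrophage-like cells had 2, 0, 5 and 3 UMIs. By library the pericyte-like share was 37.5, 1.44, 26.9 and 5.12%. In the non-neuronal sources that were tested, log2 fold changes were −0.05 in fibroblast-like, −0.16 in SGC-like and 0.30 in myelinating Schwann-like cells, none called. Of the genes tested in those types, 0.0507%, 0.0113% and 0% were called. Pericyte-like and smooth muscle-like cells were not tested. Pericyte-like levels overlapped between conditions. Smooth muscle-like levels were lower in both injury libraries, of which injury 2 held 6 such cells.

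In neuron-like cells *Il34* had 1, 8, 22 and 18 UMIs, or 1.11, 2.32, 15.3 and 6.85 CPM. The injury libraries were higher and did not overlap the control libraries, as was the case for 14.6% of the genes tested in neuron-like cells, but the level stayed below that of SGC-like cells in every library. Tested through its injury libraries alone, the gene had a log2 fold change of 2.56 (SE 0.68, edgeR adjusted p = 0.361), and *Sprr1a* neurons held 31 of the 40 UMIs of the injury libraries (77.5%) at 17.6 and 18.8 CPM. The neuron-like change exceeded the SGC-like change by 2.58 (SE 0.72, edgeR adjusted p = 0.0495), a call that was lost without control 2 (0.905) or injury 1 (1.0) and kept without control 1 (0.0332) or injury 2 (0.00656). Against fibroblast-like cells the difference was 2.47 (edgeR adjusted p = 0.107), and against endothelial-like cells 3.87 (0.0953). These differences are likewise given as a description.

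*Cx3cr1* appeared in a few neurons of the injury libraries. Neuron-like cells held 1, 3, 35 and 11 *Cx3cr1* UMIs in 1, 1, 6 and 8 cells, with up to 15 UMIs in 1 cell, and 41 of the 46 UMIs of the injury libraries (89.1%) were in *Sprr1a* neurons. The same cells had 5, 11, 6 and 4 *Csf1r* UMIs. The ratio of *Cx3cr1* to *Csf1r* UMIs was 0.2, 0.273, 5.83 and 2.75 in neuron-like cells and 0.348 to 0.609 in macrophage-like cells. The neuron-like ratios rest on these few *Csf1r* UMIs, and the difference between the ratios was not tested. The gene was under the filter on low counts in this type and was not tested in the main fit. In edgeR its log2 fold change was 3.97 with no filter (adjusted p = 6.55e-06) and 3.99 with Leiden clusters (adjusted p = 0.341). It was 2.20 without injury 1 and 4.84 without injury 2. The fit with no filter rests on 1 and 3 control UMIs, and these values are given as a description.

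**Figure D5:**
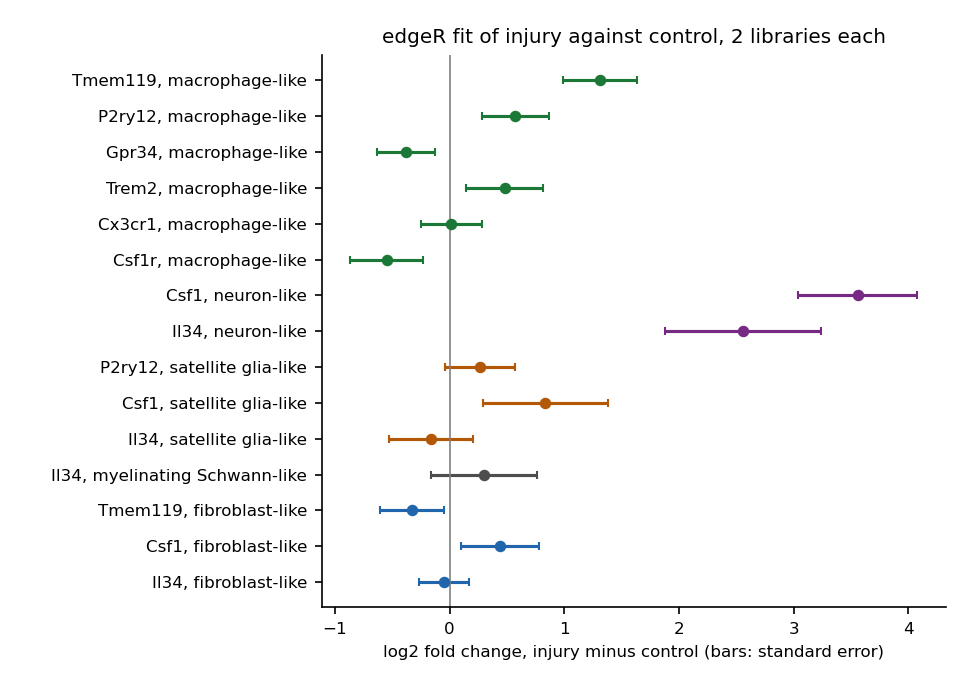
Log2 fold change, injury minus control, from the edgeR fit (horizontal axis) with 1 SE on each side. Each of the 8 genes is shown in the cell types where it was tested. In endothelial-like cells none of the 8 passed the filter on low counts. *Csf1* in neuron-like cells was at 3.56 and *Tmem119* in macrophage-like cells at 1.31, and no point passed an adjusted p of 0.05.

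Further genes of these pathways were read in macrophage-like cells, where none passed the test. Of 12 other homeostatic microglia genes 8 were tested, and 6 had a positive log2 fold change, with a median of 0.32 against 0.00 over all genes tested, 49.9% of which were positive. Among them were *Fcrls* (1.11, edgeR adjusted p = 0.444), an Fc receptor-like gene with 1128, 776, 2168 and 2455 CPM, *Olfml3* (1.07, 0.415) and *Selplg* (0.12). *Fcrls* and *Olfml3* were higher in both injury libraries than in both control libraries, as were 29.4% of all genes tested, and the levels of *Selplg* overlapped. The pair with a negative log2 fold change, named after the values were seen, were *Siglech* (−2.07, edgeR adjusted p = 0.34), with 60.9, 58.0, 19.95 and 9.45 CPM, and *P2ry13* (−0.74, 0.581). *Siglech* thus had the largest absolute log2 fold change of the 8 tested list genes, and it was lower after injury. Border macrophage genes showed no common direction, 4 of 8 being positive (median 0.06), with *Pf4* at −0.31, *Ms4a7* at 0.00, *Mrc1* at 0.17 and *F13a1* at 0.25.

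Of 10 phagocyte activation genes tied to *Trem2*, 7 were tested and 4 were positive (median 0.04). *Apoe*, the lipid carrier gene, had 45510, 44140, 25790 and 23770 CPM, lower in both injury libraries (log2 fold change −1.01, edgeR adjusted p = 0.606), and the others named were *Axl* (−0.65), *Cd9* (0.29) and *Tyrobp* (0.07), the adaptor of *Trem2*. All 14 genes around CSF1R signalling were tested and 4 were positive (median −0.14), among the named ones *Spi1*, which encodes PU.1 (−0.12), *Irf8* (−0.15) and the adaptor gene *Grb2* (0.17). None of the 6 partner ligand and receptor genes tested was positive (median −0.44), with *Ccl2* at −0.56, its receptor gene *Ccr2* at −0.52 and *Csf2ra* at −0.36. *Ptprz1*, a further receptor gene for IL-34, was an SGC gene with 177, 231, 218 and 191 CPM there.

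The genes most like each of the 8 were sought over 35 profiles of 14 cell types, among 12316 genes, as a description. *Trem2* and *Cx3cr1* were closest to each other (Pearson r = 0.978), followed by *P2ry6*, and *Csf1r* was closest to *Fcgr1* (0.985), which is a gate marker. *Tmem119* was closest to *Ccl7* (0.945), *Igf1* (0.943) and *Cxcl16* (0.935), *P2ry12* to *Slc13a3* (0.873) and *Gpr34* to *Hpgds* (0.977). *Il34* was closest to *Cyp7b1* (0.909), while *Csf1* had no gene above 0.727 (*R74862*). The profiles share libraries and cell types, so the points are not independent.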

How the data were processed

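Single cell RNA-seq of mouse DRG was analysed from 4 matrices of raw UMI counts per gene and barcode, as deposited by the authors. Per the labels and methods, the authors made them with the GemCode 3′ kit of 10x Genomics and Cell Ranger on mm10, and they hold no cell names. Filters, log CPM and ANOVA were applied by the authors later, in Partek.

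The 8 genes and all gene lists were chosen with earlier results of these data known. Kept barcodes had 600 to 15000 UMIs, 500 to 4000 genes and under 10% mitochondrial UMIs, the limits of the methods (6095 of 6975). The upper limits of 15000 UMIs and 4000 genes were dropped for neuron-like cells only, because most neurons lie above them. A cell was gated to a type with at least 3 of its markers detected, a marker UMI share of at least 0.25 of the reference share of that type (set from its highest-scoring barcodes) and the next type below 0.5 of the top one. 499 kept cells were mixed, 1097 had no type, and 37 (0.53%) were marked by Scrublet but kept. The gate limits, the subset limits (2 UMIs for cycling genes and *Sprr1a*, 5 for SGC markers) and the tests of a difference between types were set after the matrices had been seen.

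UMIs were summed per library and type, and injury was tested against control with the quasi-likelihood test of edgeR 4.0.16 (TMM scaling, filterByExpr, R 4.3.3) in types with at least 10 cells in every library. Benjamini-Hochberg adjustment ran over all genes tested, with calls at adjusted p under 0.05 and, as a second rule, also at an absolute log2 fold change of 2 or more, which no gene of the 8 met. Smooth muscle-like, pericyte-like and non-myelinating glia-like cells had fewer cells in a library and were not tested. Differences between types were fitted with library as a block, for genes with at least 10 UMIs in both types, over 5 pairs of types. Shares at 1000 UMIs are expected values over random draws, because a single draw was noisy at these counts (*Tmem119* in macrophage-like cells of injury 2 gave 9.28% in 1 draw and 16.4% as the mean over draws). Clusters came from Leiden in scanpy 1.11.5 (Python 3.11.15), and 32655 of the 33456 gene IDs matched the annotation.

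Data were simulated with the same spread for every gene, a common value estimated from these libraries. Only genes with more than a few expected UMIs in the smallest library were changed. In macrophage-like cells (6570 genes) the test recovered 57% of genes changed by 1.5 on the log2 scale and 96% of those changed by 3. In neuron-like cells (10124 genes) the shares were 36.5% and 99%. These shares do not cover genes with a wider spread or fewer UMIs. In the neuron-like data themselves 0 of 10115 genes were called. From each list the text names up to 4 genes, those with the most UMIs in macrophage-like cells or, for the partner genes, in all cells, plus called genes, the 3 genes most like each member, and in macrophage-like cells the 5 smallest p-values in each direction. A gene that this rule would name is not reported here. *Sprr1a*, *Atf3*, *Pvalb*, *Scn10a*, *Pi16* and *Dpp4* are named as markers of subsets. Alternatives were DESeq2 1.42.0, RLE scaling, no low-count filter, a replicate block, other cell filters and gates, Leiden clusters, removal of Scrublet doublets or cycling cells, and leaving out each library.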

Additional observations from a re-analysis of the deposited data

Results flagged for a closer look

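Fits of the difference between cell types gave a larger injury effect on *Csf1* in neuron-like cells. They rest on the same neuron-like values as the fit within that type, so they are no separate evidence. The *Csf1* effect exceeded that of fibroblast-like cells by 2.90 on the log2 scale (adjusted p = 0.0386 in edgeR). It exceeded that of endothelial-like cells by 3.09 (adjusted p = 0.0134 in edgeR). For *Il34* the neuron-like effect exceeded the SGC-like effect by 2.58 (adjusted p = 0.0495). In each case both injury libraries lay above both control libraries in neuron-like cells, where both control libraries were under the low-count limit of 4.92 CPM. Which neuron classes were caught in each library and the effect of injury cannot be told apart, so these calls are given as a description. All 3 calls were lost without control 2 (adjusted p = 0.0990, 0.939 and 0.905 in this order) or without injury 1 (0.724, 0.425 and 1.0), the pair for *Csf1* also without control 1 (0.274 and 0.200), and the tests were added after the levels had been seen.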

How the results depend on the processing

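The number of genes called moved with the settings far more than the member values did. With no filter on low counts, 178, 600, 11, 1, 56 and 12 genes were called in macrophage-like, neuron-like, SGC-like, myelinating Schwann-like, fibroblast-like and endothelial-like cells. With the replicate number as a block the counts were 199, 44, 7, 12, 11 and 23, and DESeq2 called 14 in macrophage-like, 127 in neuron-like and 12 in fibroblast-like cells. Leaving out 1 library gave 1 to 222, 6 to 412, 4 to 23, 0 to 10, 17 to 72 and 1 to 39. The upper limits of the methods gave 2 and all barcodes 5 in neuron-like cells, removal of Scrublet doublets gave 2 in SGC-like cells, and Leiden clusters gave 0 in fibroblast-like cells (edgeR in each). Of 179 refits of a member's log2 fold change, 160 kept direction and side of the threshold, 11 passed it and 8 changed sign, all 8 at an adjusted p of 0.981 or more. *Cx3cr1* in macrophage-like cells was at −0.028 without cycling cells and ran from −0.13 to 0.16 when a library was left out. *Il34* was at 0.018 with the block and from −0.41 to 0.29 without 1 library in SGC-like cells, from −0.20 to 0.93 in myelinating Schwann-like cells, and at 0.10 with Leiden clusters and from −0.21 to 0.11 without 1 library in fibroblast-like cells. The block used the numbers of the labels, of which number 1 is only implied. Samples with the same number deviated together (r = 0.139 to 0.436 over 6 types), but with 2 pairs this does not establish a pairing. Among the members the block changed the edgeR call of *Csf1* in neuron-like cells (3.34, adjusted p = 0.0484) and of *Tmem119* in macrophage-like cells (1.34, adjusted p = 0.0097). *Csf1* and *Il34* were tested in neuron-like cells through their injury libraries alone. Their refits, some of which are among the 11 that passed, are given as a description. The difference for *Il34* between neuron-like and endothelial-like cells ran from −1.84 to 9.87 without 1 library, and that for *P2ry12* between macrophage-like and SGC-like cells from −0.73 to 0.98. The mean of *Cx3cr1* in macrophage-like cells was 430.1 CPM with Leiden clusters and 455.5 with the gate, and the other 51 of 52 mean levels moved by less than 1 SD. The cause of these shifts was not tested. With 2 libraries a condition, changes of 1.5 on the log2 scale were often missed in the simulated data. In the neuron-like data themselves larger changes were not called in the main fit either, such as *Csf1* at 3.56 (edgeR adjusted p = 0.144). Neuron-like values also rest on few cells in control 1 and injury 1.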

Other observations

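Beyond the 8 genes, the smallest p-values for higher levels in macrophage-like cells of the injury libraries belonged to genes of cell division: *Ube2c* (log2 fold change 4.77), *Ccnb2* (5.80), *Cenpf* (8.09) and *Cdc20* (3.45), together with *Nxpe5* (3.40). The smallest for lower levels were those of *Gbp5* (−3.45), an interferon-induced GTPase gene, the lysozyme gene *Lyz1* (−2.63), *Sema4a* (−2.53), *Egfl7* (−1.98), which is an endothelial gate marker, and the heat shock gene *Hspa1a* (−1.99). None passed the adjustment in edgeR (adjusted p of 0.156 to 0.254).

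Some partners of the 8 genes were chosen for mention after their values were seen. *Cx3cl1*, which encodes fractalkine, the ligand of CX3CR1, had 67.5, 81.5, 42.1 and 60.4 CPM in endothelial-like cells and at most 6.25 CPM in neuron-like cells. *Sdc1*, a syndecan gene whose product can bind IL-34, had 18.8, 5.81, 162 and 75.7 CPM in neuron-like cells, where both injury libraries were above both control libraries (log2 fold change 3.67, edgeR adjusted p = 0.222).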
